A study of Mus musculus with 12 samples.

Results

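The 37 genes described here encode lysosomal hydrolases with their activator protein, lysosomal membrane proteins, the cholesterol transfer proteins NPC1 and NPC2 and the transcription factor TFEB. They were chosen by name, with earlier results of these data known. All 37 had a probe set that named a single gene, out of 19937 such genes on the array. The series, which by its title concerns cholesterol excretion through the intestine, measured RNA of small intestine from male wild-type FVB mice whose age is labelled as 8 weeks. The 6 mice of the low P/S group ate a diet poor in polyunsaturated relative to saturated fatty acids for 8 weeks, and the 6 mice of the control group ate a control high-fat diet for as long. Each mouse gave 1 Affymetrix array of whole-tissue RNA, the submitters describe the replicates of a diet as biological, and the labels do not name the segment of the small intestine.

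Lysosomes are acidic organelles that break down material taken up by endocytosis or delivered by autophagy. Soluble hydrolases work in their lumen, a coat of glycosylated membrane proteins lines their membrane, and cholesterol freed from lipoprotein cholesteryl esters leaves them through NPC2 and NPC1. TFEB switches on many lysosomal genes through a short element in their promoters. In the small intestine these organelles serve the absorptive enterocytes and, in the lamina propria, macrophages.

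Transcripts that rose on the low P/S diet came from the membrane protein gene Scarb2, from the protease genes Ctsd, Ctsh, Lgmn and Ctsc and from the glycosidase genes Gla, Gusb and Gaa. The cholesterol exporter gene Npc1, the regulator gene Tfeb and the heparan sulphate hydrolase gene Naglu fell. Lipa, Npc2, Asah1 and Ppt1 also rose and Man2b1 and Fuca1 also fell, and each of these 6 calls ended when certain single arrays were left out. The rises that passed lay between 0.16 and 0.49 on the log2 scale, or 1.12-fold to 1.41-fold, and the falls between -0.39 and -0.14. Differences are low P/S minus control of log2 intensity, ± after a difference is the standard error from limma, and a gene passed at a limma p under 0.05 after Benjamini-Hochberg adjustment over the 11962 genes bright enough to be tested. Of the 37 genes 36 were tested, 12 rose, 5 fell and 19 did not pass, while among all genes tested 17.8% were higher and 7.87% lower, together 25.7%. Without low P/S array 4 or without control array 4, 3 of the 36 genes were lower. The median difference was 0.08 over the 36 genes and 0.02 over all genes tested, and quantile normalization gave 10 higher and 8 lower with a median of 0.03, and 1853 higher and 1596 lower genes in all, against 2132 and 942 without it. The 6 low P/S arrays lay wholly beyond the 6 control arrays for 9 of the 36 genes, against 10.8% of all genes tested. Since the genes were chosen with earlier results known, setting them beside all genes is not an independent comparison. Galc, the galactosylceramidase gene, was too dim to test, at 87.6 ± 3.3 on the low P/S and 83.0 ± 3.4 on the control diet (intensity, SD, n = 6 each).

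**Figure D1:**
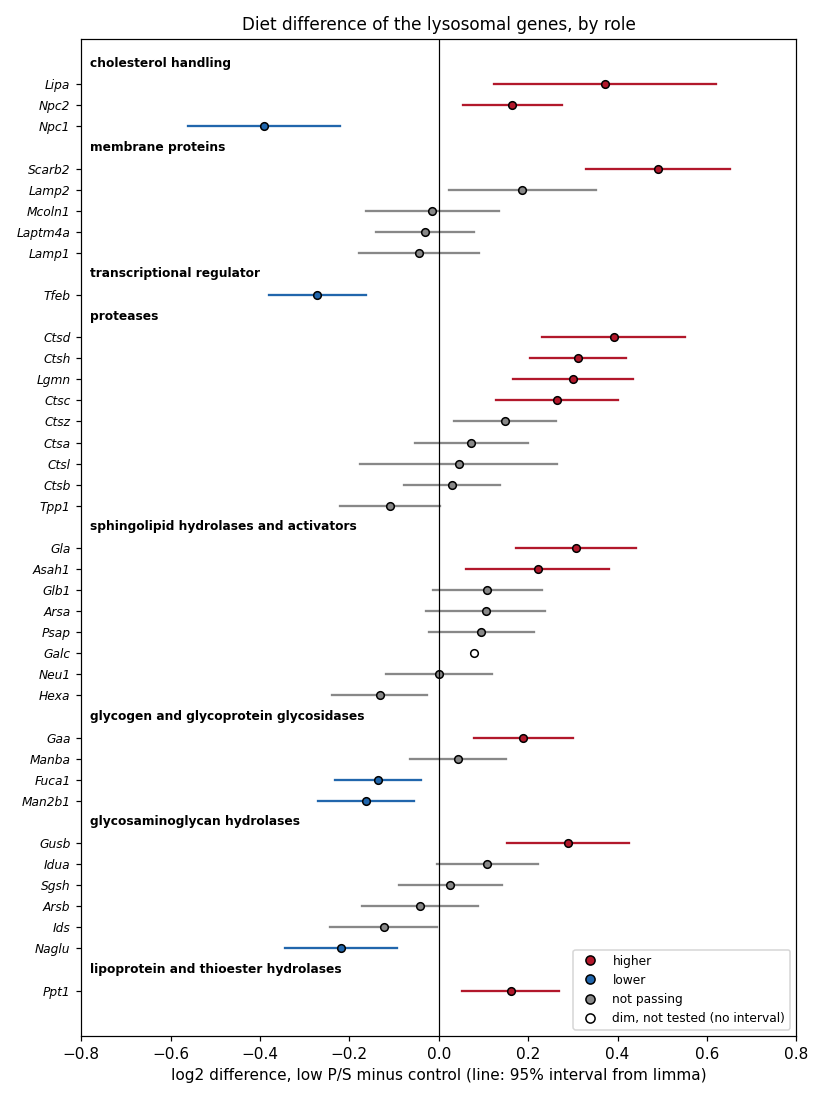
Log2 difference in intensity, low P/S minus control, for each of the 37 genes (points) with the 95% interval from limma (lines), grouped by role and ordered by size within each role. Red points passed as higher (12 genes), blue points as lower (5 genes), grey points did not pass and the white point (Galc) was too dim to test; Scarb2 lies farthest to the right at 0.49 and Npc1 farthest to the left at -0.39.

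The tissue label matched its markers, since all 10 enterocyte markers were bright and 4 of 5 markers of stomach, colon and liver were below the limit for testing. Low P/S array 3 stood apart in B cell genes, with Ms4a1 at 168.0 against 44.6 to 48.4 in the other low P/S arrays and 46.1 to 50.9 in the control arrays. Without that array 12 of the lysosomal genes were higher and 5 lower, and they were the same 17 genes. Markers of macrophages and dendritic cells moved with the diet: 10 of 13 tested rose and 0 fell (median 0.28), or 5 rose under the 60th percentile filter, which leaves out more dim genes. The summed intensity of all 18 was 3571 to 4476 in low P/S arrays and 2968 to 3472 in control arrays, which do not overlap. The brightest of the 18, Lyz2 at 1370.9, weighed most in this sum and did not pass. Gene by gene, the diets did not overlap for 4 of the 13 tested markers, against 10.8% of all genes tested. The call of the marker Fcer1g ended in 8 of 22 alternatives. Csf1r, the receptor gene for the main macrophage growth factor, rose 1.45-fold (0.54 ± 0.07, adjusted p = 0.000105), Cd68, a lysosomal membrane protein of macrophages, rose 1.22-fold (0.29 ± 0.06, adjusted p = 0.0038), and the defining markers Adgre1, Cd14, Fcgr1, Aif1 and Siglec1 were too dim to test. All 6 measured class II antigen presentation genes fell (median -0.67). The call of H2-Aa ended in 5 of 23 alternatives and that of Ciita in 9 of 22. Both ended with low P/S array 1 or 5 or control array 3 or 5 left out. Of 10 enterocyte markers 4 fell, or 6 with quantile normalization. The 4 were Lct, Anpep, Sis and Vil1, and they passed in all 23 alternatives. The fatty acid binding protein gene Fabp1 was the 1 enterocyte marker that passed as higher (0.21, adjusted p = 0.0481), but 15 of 23 alternatives ended that call, among them leaving out low P/S array 1, 2, 3, 5 or 6 or control array 1, 3 or 6 (adjusted p between 0.0559 and 0.106). Fibroblast markers rose for 4 of 6 genes, or 2 with quantile normalization, and T cell markers fell for 4 of 5. Of 3 tested B and plasma cell markers 2 rose, and of 5 goblet cell markers 2 rose, with 0 lower in either list. The call of Mzb1, of the first list, ended in 13 of 22 alternatives, and that of Clca1, of the second, in 6 of 23. Summed B and plasma cell markers did not overlap either, at 1985 to 2938 in low P/S and 1323 to 1726 in control arrays. Summed T cell markers lay lower, at 766 to 1066 against 1070 to 1319. All 8 circadian clock genes passed, against 25.7% of all genes tested, 7 as lower and Arntl as higher (1.11). Dbp fell 4.10-fold and Tef 2.01-fold, both outputs of the clock, and the labels give no time of dissection. The call of Per1 ended in 14 of 23 alternatives. The part of these markers in the differences of the lysosomal genes was not tested, and in whole tissue fewer cells of a type and less RNA per cell cannot be told apart.

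The element that TFEB binds has the core CACGTG, so the promoters were searched for it. RefSeq promoter windows (build GRCm38.p6, 250 bases before to 50 after a gene's start) were matched by symbol for 33 of the 37 genes. The 4 genes without a window were Npc1, Ctsb, Asah1 and Ctsh, so their promoters were not searched. CACGTG, which reads the same on both strands, stood in at least 1 window of 12 of these 33 genes (36.4%), of 31 of 116 other lysosome genes (26.7%) and of 8.09% of all 27025 genes with a window. The longer TCACGTG, which contains it, searched on both strands, stood in 11 of 33 (33.3%), against 4.29% of all genes. By diet response the core stood in 4 of 10 genes that rose, in 1 of 4 that fell and in 7 of 18 that did not pass. The windows of 5 genes are shown because they span the responses: Ctsd and Gla rose with 2 copies each, Naglu fell with 1 copy, Lamp1 did not pass with 4 copies, and Scarb2 rose most with none. Capitals mark the core and all else is in lower case.
Ctsd (chr7:142387778-142388077, minus strand): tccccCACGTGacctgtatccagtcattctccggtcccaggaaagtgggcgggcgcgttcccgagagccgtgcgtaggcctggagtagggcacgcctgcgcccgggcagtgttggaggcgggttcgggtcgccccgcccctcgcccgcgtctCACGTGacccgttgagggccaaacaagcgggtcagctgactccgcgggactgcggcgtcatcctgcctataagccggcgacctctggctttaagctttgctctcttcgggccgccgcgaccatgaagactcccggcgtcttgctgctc
Gla (chrX:134600956-134601255, minus strand): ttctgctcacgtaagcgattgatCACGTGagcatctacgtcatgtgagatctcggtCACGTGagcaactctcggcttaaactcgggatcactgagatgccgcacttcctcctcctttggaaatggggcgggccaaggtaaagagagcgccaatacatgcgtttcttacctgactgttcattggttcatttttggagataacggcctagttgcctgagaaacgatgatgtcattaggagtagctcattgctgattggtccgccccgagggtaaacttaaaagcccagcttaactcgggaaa
Naglu (chr11:101069844-101070143, plus strand): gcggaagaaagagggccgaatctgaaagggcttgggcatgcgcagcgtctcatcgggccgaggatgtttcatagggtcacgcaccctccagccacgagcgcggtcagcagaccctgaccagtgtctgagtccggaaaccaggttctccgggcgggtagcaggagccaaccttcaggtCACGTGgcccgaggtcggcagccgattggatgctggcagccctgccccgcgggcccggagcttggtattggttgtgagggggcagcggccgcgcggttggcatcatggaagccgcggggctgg
Lamp1 (chr8:13158911-13159210, plus strand): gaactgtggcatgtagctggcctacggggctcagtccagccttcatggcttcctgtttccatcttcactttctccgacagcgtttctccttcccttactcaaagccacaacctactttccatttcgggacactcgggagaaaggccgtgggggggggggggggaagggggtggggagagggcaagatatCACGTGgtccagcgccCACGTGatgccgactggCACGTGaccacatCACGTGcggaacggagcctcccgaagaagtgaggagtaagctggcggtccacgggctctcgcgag
Scarb2 (chr5:92505608-92505907, minus strand): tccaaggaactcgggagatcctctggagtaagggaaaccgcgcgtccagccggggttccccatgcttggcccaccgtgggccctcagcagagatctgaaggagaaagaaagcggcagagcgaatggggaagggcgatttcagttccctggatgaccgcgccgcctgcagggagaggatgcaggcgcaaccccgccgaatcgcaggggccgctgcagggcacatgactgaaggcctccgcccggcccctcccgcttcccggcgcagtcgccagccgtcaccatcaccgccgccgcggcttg

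The copies begin 245 and 98 bases before the start of Ctsd, 227 and 194 before that of Gla, 73 before that of Naglu and 61, 45, 28 and 15 before that of Lamp1. A match is a run of letters and shows no binding, by TFEB or by any other factor. Its absence shows only that these letters are not in the window.

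The 3 genes of cholesterol handling moved in opposite directions. Lipa, the acid lipase that frees cholesterol from cholesteryl esters, and Npc2, which carries the freed cholesterol in the lumen, rose, while Npc1, the membrane protein that takes it over for export, fell. Npc1 (probe set 10457508) had intensities of 202 at the lowest, 228 at the median and 276 at the highest in low P/S arrays, against 271 at the lowest, 311 at the median and 352 at the highest in control arrays. Only the highest low P/S array, array 2, lay above the lowest control array, array 6. Its mean was 237 ± 29 on the low P/S and 310.1 ± 29 on the control diet (SD, n = 6 each), so that it fell 1.31-fold (-0.39 ± 0.08, adjusted p = 0.00254), which passed in all 23 alternatives (highest adjusted p = 0.016).

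Npc2 (probe set 10401519) had 464 at the lowest, 475 at the median and 536 at the highest in low P/S arrays, against 394 at the lowest, 432 at the median and 464 at the highest in control arrays. The lowest low P/S array, array 3, lay just under the highest control array, array 1. The rise was 1.12-fold (0.16 ± 0.05, adjusted p = 0.0293). The call ended with quantile normalization (0.10, adjusted p = 0.16) and when low P/S array 2 or 5 or control array 2, 3 or 6 was left out (adjusted p between 0.0513 and 0.0654). Lipa (probe set 10467139) had 1899 at the lowest, 2303 at the median and 2571 at the highest in low P/S arrays, against 1293 at the lowest, 1677 at the median and 2171 at the highest in control arrays. The groups overlapped, with control arrays 1 and 2 above 3 of the low P/S arrays. The rise was 1.29-fold (0.37 ± 0.12, adjusted p = 0.0286), and the call ended without variance shrinkage (adjusted p = 0.0869) and when low P/S array 1, 2 or 4 or control array 3, 4, 5 or 6 was left out (adjusted p between 0.0526 and 0.0665).

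Within an array any factor shared by all probe sets cancels between genes, so the levels were also set against each other there. The log2 level of Npc2 minus that of Npc1 was higher by 0.56 on the low P/S diet, and that of Lipa minus Npc1 by 0.76, and in neither case did the diets overlap. Lipa minus Npc2 was higher by 0.21, with overlap. These differences describe genes chosen for their known changes and carry no test.

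**Figure D2:**
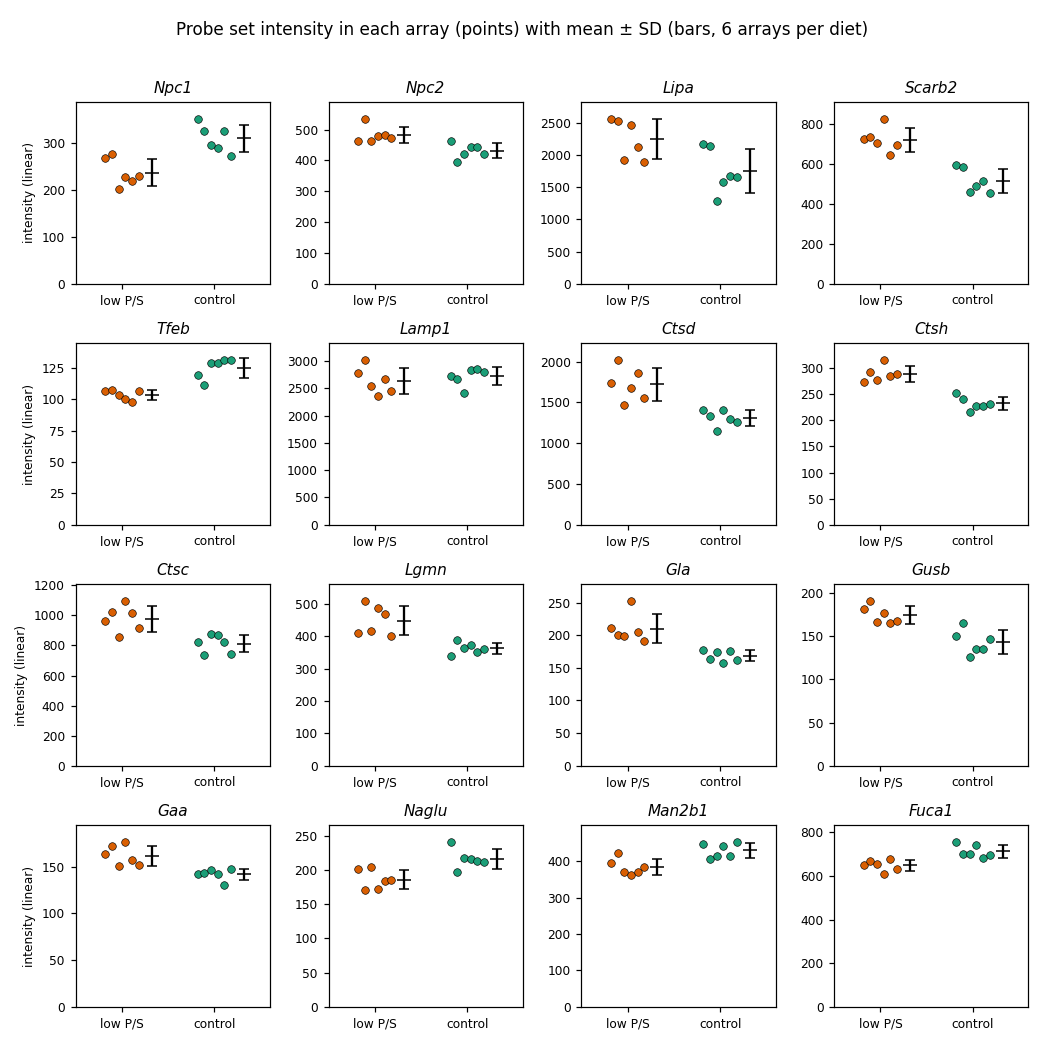
Intensity on a linear scale from 0 in each low P/S array (orange, left) and control array (green, right) for 16 of the genes, with the mean ± SD of 6 arrays beside each group. Scarb2, Ctsd, Ctsh, Lgmn, Gla and Gaa show low P/S arrays above all control arrays, Tfeb and Fuca1 show them below, and Lamp1 overlaps throughout.

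Among the 5 membrane protein genes, Scarb2 rose and 4 did not pass (median difference of the 5 genes -0.01). Scarb2 (probe set 10531437), whose product LIMP-2 is the receptor that brings glucocerebrosidase to the lysosome, had 646 at the lowest, 717 at the median and 829 at the highest in low P/S arrays, against 455 at the lowest, 502 at the median and 594 at the highest in control arrays. Every low P/S array lay above every control array. With 1.41-fold (0.49 ± 0.08, adjusted p = 0.000344) it had the largest rise of the 37 genes, and it passed in all 23 alternatives.

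Lamp1 and Lamp2 encode the most abundant glycoproteins of the lysosomal membrane. Lamp1 averaged 2639 ± 240.5 on the low P/S and 2717 ± 165 on the control diet (SD, n = 6 each), and the difference had a 95% interval of -0.18 to 0.09. Lamp2 averaged 995 ± 84 on the low P/S and 876 ± 102 on the control diet. Its difference of 0.19 (95% interval 0.02 to 0.35, adjusted p = 0.0866) passed with low P/S array 6 left out (0.22, adjusted p = 0.0462), with control array 1 left out (0.23, adjusted p = 0.0367) and without control arrays 1 and 2 together (0.27, adjusted p = 0.0185). Laptm4a, a small membrane protein of late endosomes and lysosomes, had an interval of -0.14 to 0.08. Mcoln1, the calcium release channel of lysosomes, had a difference of -0.01 with an interval of -0.16 to 0.13, and its sign turned with array weights (0.02).

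Tfeb (probe set 10445729), the regulator of lysosomal gene sets, fell. Its intensity was 97.4 at the lowest, 105 at the median and 107 at the highest in low P/S arrays, against 112 at the lowest, 129 at the median and 132 at the highest in control arrays. The groups did not overlap, and control array 2 was the control array nearest to the low P/S group. Tfeb fell 1.21-fold (-0.27 ± 0.05, adjusted p = 0.00138), and this passed in each of the 22 alternatives in which the gene was tested. Its level was near the limit for testing, a geometric mean intensity of 85.6, and it was left out as dim by the filter at the 60th percentile.

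Of the 9 protease genes 4 rose and 5 did not pass, and their median difference was 0.15. Ctsd (probe set 10569319), the main aspartic protease of lysosomes, had 1471 at the lowest, 1707 at the median and 2025 at the highest in low P/S arrays, against 1145 at the lowest, 1312 at the median and 1412 at the highest in control arrays, and the groups did not overlap. It rose 1.31-fold (0.39 ± 0.08, adjusted p = 0.00163). Ctsh (probe set 10587733), a cysteine protease that trims peptides from the amino end, had 273 at the lowest, 287 at the median and 317 at the highest in low P/S arrays, against 216 at the lowest, 229.8 at the median and 253 at the highest in control arrays. It did not overlap either and rose 1.24-fold (0.31 ± 0.05, adjusted p = 0.000514), the smallest adjusted p of the proteases.

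Lgmn (probe set 10402268) encodes the asparagine-specific protease legumain, which processes cathepsins. Its intensity was 402 at the lowest, 442 at the median and 510.0 at the highest in low P/S arrays. In control arrays it was 340.3 at the lowest, 362 at the median and 388 at the highest. All low P/S arrays were above all control arrays, and the rise was 1.23-fold (0.30 ± 0.06, adjusted p = 0.00289). Ctsc (probe set 10554789), the dipeptidyl peptidase that activates granule serine proteases, had 859.5 at the lowest, 987 at the median and 1098 at the highest in low P/S arrays, against 739 at the lowest, 825 at the median and 875 at the highest in control arrays. Low P/S array 3 lay among the control arrays, and the rise was 1.20-fold (0.27 ± 0.07, adjusted p = 0.0073). These 4 genes passed in all 23 alternatives.

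The other proteases had smaller differences. Ctsz, a carboxypeptidase, had a difference of 0.15 (adjusted p = 0.054) and averaged 2677 ± 190.5 on the low P/S and 2413 ± 118 on the control diet. It passed in 5 of 23 alternatives, among them without low P/S array 6 (0.17, adjusted p = 0.0378) and with quantile normalization (0.14, adjusted p = 0.0201). The others were the 60th percentile filter (adjusted p = 0.0479), the pseudocount of 16 (adjusted p = 0.0468) and the replicate block (adjusted p = 0.0455). The endopeptidase genes Ctsb and Ctsl had intervals of -0.08 to 0.14 and -0.18 to 0.27, and both signs turned with quantile normalization (-0.05 for Ctsb and -0.03 for Ctsl). The interval was -0.05 to 0.20 for Ctsa, which protects other hydrolases in a complex, and -0.222 to 0.003 for Tpp1, a tripeptidyl peptidase. Tpp1 passed as lower with quantile normalization (-0.17, adjusted p = 0.0174). Of the protease genes in the neighbouring list, Ctss, the protease that trims the class II invariant chain, fell 1.37-fold, with 898 at the lowest, 945 at the median and 1049 at the highest in low P/S arrays, against 1143 at the lowest, 1370.3 at the median and 1409 at the highest in control arrays (adjusted p = 8.77e-05). Macrophage markers rose and class II genes fell in the same arrays, and their part in the protease differences was not tested.

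Of 7 tested genes for sphingolipid hydrolases and their activator, Gla and Asah1 rose and 5 did not pass (median difference 0.10). Gla (probe set 10606714), the alpha-galactosidase that removes the end galactose of globotriaosylceramide, had 191 at the lowest, 202 at the median and 253 at the highest in low P/S arrays, against 158 at the lowest, 169 at the median and 178 at the highest in control arrays. The groups did not overlap, low P/S array 4 stood above the others, and the rise was 1.24-fold (0.31 ± 0.06, adjusted p = 0.00262). Asah1 (probe set 10578361), the acid ceramidase, had 369 at the lowest, 419.9 at the median and 508 at the highest in low P/S arrays, against 328 at the lowest, 386 at the median and 398 at the highest in control arrays. Low P/S array 3 lay within the control range. The rise of 1.17-fold (0.22 ± 0.08, adjusted p = 0.0397) was the least stable of the calls together with Fuca1, since 10 of 23 alternatives ended it, among them leaving out low P/S array 1, 4 or 5 or control array 4, 5 or 6 (adjusted p between 0.0543 and 0.0933).

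The genes that did not pass were Psap, whose product is cut into the saposins that present lipids to the hydrolases, and the hydrolase genes Glb1, Hexa, Arsa and Neu1. Psap, Glb1 and Arsa had intervals of -0.02 to 0.21, -0.01 to 0.23 and -0.03 to 0.24. Hexa, the alpha chain of beta-hexosaminidase, averaged 776 ± 46 on the low P/S and 849 ± 36 on the control diet, with a difference of -0.13 (adjusted p = 0.0625). It passed as lower with quantile normalization (-0.21, adjusted p = 0.00849) and once low P/S array 2 was left out (-0.15, adjusted p = 0.0389). Neu1, the lysosomal sialidase, averaged 189 ± 17 on the low P/S and 189 ± 4.8 on the control diet, with an interval of -0.12 to 0.12.

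Of the 4 glycosidase genes for glycogen and glycoproteins 1 rose, 2 fell and 1 did not pass (median difference -0.05). Gaa (probe set 10383088), the acid glucosidase that degrades glycogen, had 151 at the lowest, 160.2 at the median and 177 at the highest in low P/S arrays, against 130.5 at the lowest, 143 at the median and 147 at the highest in control arrays. It rose 1.14-fold (0.19 ± 0.05, adjusted p = 0.0143) with no overlap and passed in all 23 alternatives. Man2b1 and Fuca1, the acid mannosidase and fucosidase that trim glycoprotein sugars, fell instead. Man2b1 (probe set 10573583) had 361 at the lowest, 378 at the median and 424 at the highest in low P/S arrays, against 407 at the lowest, 428 at the median and 454 at the highest in control arrays. Only low P/S array 2 lay within the control range, and the gene fell 1.12-fold (-0.16 ± 0.05, adjusted p = 0.0266). The call ended with median centring (adjusted p = 0.0547) and when low P/S array 4 or 5 or control array 4 or 6 was left out (adjusted p between 0.0562 and 0.0638).

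Fuca1 (probe set 10509127) had 611 at the lowest, 653 at the median and 677 at the highest in low P/S arrays, against 684 at the lowest, 701 at the median and 757 at the highest in control arrays. The groups did not overlap, but the gap was narrow, and the gene fell (-0.14 ± 0.05, adjusted p = 0.0358). The call ended with median centring (adjusted p = 0.0729), with a trended robust prior (adjusted p = 0.0672) and when low P/S array 1, 4 or 6 or control array 1, 3 or 4 was left out (adjusted p between 0.052 and 0.0854). Manba, the beta-mannosidase, did not pass, with an interval of -0.06 to 0.15.

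Of the 6 genes that degrade glycosaminoglycans, the sulphated sugar chains of proteoglycans, Gusb rose, Naglu fell and 4 did not pass (median difference -0.01). Gusb (probe set 10534102), the beta-glucuronidase, had 165 at the lowest, 172 at the median and 191 at the highest in low P/S arrays, against 126 at the lowest, 141 at the median and 165.5 at the highest in control arrays. Control array 2 alone reached the low P/S range, and the rise was 1.22-fold (0.29 ± 0.06, adjusted p = 0.00411). Naglu (probe set 10381211), the glucosaminidase of heparan sulphate, had 170.0 at the lowest, 184 at the median and 203 at the highest in low P/S arrays, against 197 at the lowest, 214 at the median and 241 at the highest in control arrays. Low P/S arrays 1 and 3 lay above control array 2, and Naglu fell 1.16-fold (-0.22 ± 0.06, adjusted p = 0.013). Both passed in all 23 alternatives.

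The sulphatase genes Arsb, Sgsh and Ids and the iduronidase gene Idua act on the same chains. Their intervals were -0.17 to 0.09 for Arsb, -0.09 to 0.14 for Sgsh, -0.243 to -0.004 for Ids and -0.003 to 0.221 for Idua. Ids passed as lower with quantile normalization (-0.17, adjusted p = 0.0271) and without control array 2 (-0.15, adjusted p = 0.0498). Arsb had 2 probe sets, which disagreed in sign, at -0.04 and 0.05. Hgsnat, which acts on heparan sulphate in the same pathway as Naglu but was counted in a neighbouring list, fell 1.40-fold. It had 369 at the lowest, 402 at the median and 431 at the highest in low P/S arrays, against 479.5 at the lowest, 582.5 at the median and 621 at the highest in control arrays (adjusted p = 9.5e-05). Arsg, a sulphatase gene in that neighbouring list, rose instead. Its difference was 0.369 to 0.555 over the 23 alternatives (highest adjusted p = 0.0168).

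Ppt1 (probe set 10507784), the thioesterase that removes palmitate from proteins, had 447 at the lowest, 478 at the median and 524 at the highest in low P/S arrays, against 388 at the lowest, 433 at the median and 447 at the highest in control arrays, so the groups met at their ends without overlapping. Ppt1 rose 1.12-fold (0.16 ± 0.05, adjusted p = 0.0291). The call ended with quantile normalization (0.09, adjusted p = 0.11) and when low P/S array 1, 4 or 5 or control array 6 was left out (adjusted p between 0.0555 and 0.072).

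The within-diet SD of the log2 level had a median of 0.10 over the 36 tested genes and 0.11 over all genes tested, and was largest for Lipa at 0.24 and Ctsl at 0.21 and smallest for Fuca1 at 0.06. Low P/S array 2 was the highest array of its diet for 15 of the 36 genes and array 4 for 11, whereas array 3 was the lowest for 13. Among control arrays, array 1 was the highest for 15 genes and array 3 the lowest for 12. Averaged over the 36 genes, the deviation from the diet mean ran from -0.07 in low P/S array 3 to 0.08 in low P/S array 2, and from -0.05 in control array 3 to 0.05 in control array 1. The median deviation of all genes tested was -0.039 in low P/S array 3 and 0.004 in low P/S array 2. It was -0.016 in control array 3 and 0.043 in control array 1, so part of these shifts was shared by all genes. The highest and lowest arrays were not counted over all genes.

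**Figure D3:**
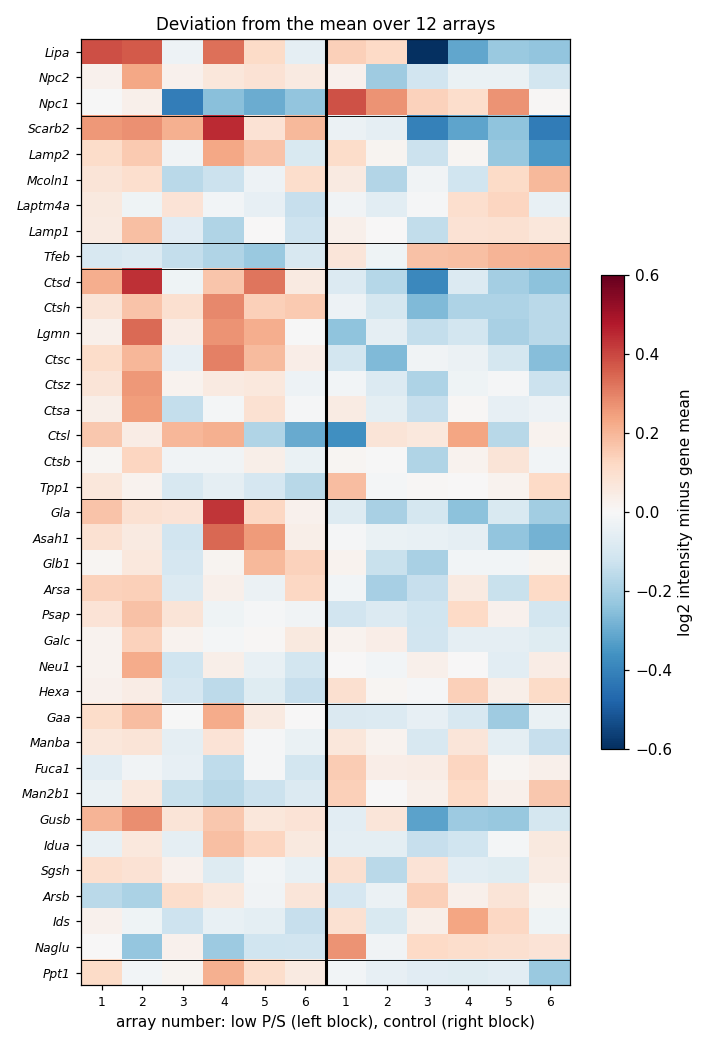
Log2 intensity minus the mean over all 12 arrays for each of the 37 genes (rows, in blocks by role) in low P/S arrays 1 to 6 (left) and control arrays 1 to 6 (right), with red above and blue below the mean. Lipa, Scarb2, Ctsd, Ctsh, Lgmn and Gla are mostly red on the left, and Npc1 and Tfeb mostly blue there.

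Other genes of the lysosome were counted from 9 fixed lists with 132 tested genes, of which 11 rose, 16 fell and 105 did not pass (20.5% passed, median difference 0.02). Over all genes tested 25.7% passed, 17.8% as higher and 7.87% as lower, and the counts of single lists are to be read against these shares. In the list of other hydrolases 6 of 27 rose and 6 fell (median 0.03). Arsg, Dpp7, Acp2 and Gm2a passed as higher in every alternative in which they were tested. The rises of Plbd1 and Prcp ended in 13 and 9 of 23 alternatives, and the fall of Man2b2 in 9. Single arrays left out were among these, and without control array 3 the list had 4 higher genes. Besides Ctss and Hgsnat, Siae, a sialic acid esterase, fell by 0.37 (log2, adjusted p = 0.00107), and Ctsf, a cysteine protease, fell by 0.30 (log2, adjusted p = 0.00231). In the list of membrane proteins and transporters 0 of 24 rose and 6 fell (median -0.04), and quantile normalization gave 9 lower. In this list 1 gene was higher with low P/S array 5 or control array 1 left out. Slc36a1, a proton-coupled amino acid transporter, fell 1.63-fold (adjusted p = 0.00128). Slc17a5, which exports sialic acid from lysosomes, fell 1.52-fold (adjusted p = 5.96e-05), with 393 at the lowest, 423 at the median and 458 at the highest in low P/S arrays, against 561 at the lowest, 629 at the median and 794 at the highest in control arrays. Neither overlapped between the diets.

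In the list of TFEB relatives and nutrient sensing 3 of 14 fell and 0 rose (median 0.07). Without control array 2 there were 2 higher genes, and without low P/S array 6, control array 1 or control array 4 there was 1. Fnip1, a partner of the tumour suppressor folliculin in the control of TFEB, fell 1.37-fold, with 392 at the lowest, 444 at the median and 524 at the highest in low P/S arrays, against 568 at the lowest, 612 at the median and 671 at the highest in control arrays (adjusted p = 0.000201). Flcn, the folliculin gene, fell 1.22-fold (adjusted p = 0.00793), while Tfe3, a close relative of Tfeb, had a difference of 0.00 (adjusted p = 0.982) and Mitf and Tfec were too dim to test. Rragd, a GTPase of the same pathway, passed as lower (-0.19, adjusted p = 0.0444), but not with any of low P/S arrays 1, 3, 4 and 6 or control arrays 1, 3, 4 and 6 left out (adjusted p between 0.0511 and 0.105). Of 15 subunits of the proton pump that acidifies lysosomes 2 rose, Atp6v1f by 1.25-fold (adjusted p = 0.0018) and Atp6v0a1 by 1.21-fold (adjusted p = 0.0175), and 13 did not pass (median of the 15 subunits 0.05). With low P/S array 6 left out 4 of the 15 were higher, and with low P/S array 3 left out 3 were.

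None of 17 genes that sort hydrolases to lysosomes and none of 8 genes of late endosome tethering passed, with 3 and 0 genes at an unadjusted limma p under 0.05 and medians of 0.05 and 0.02. In the sorting list 1 gene passed as higher with low P/S array 3 or control array 1 left out and 3 without control arrays 1 and 2 together, while 1 passed as lower with low P/S array 2 left out and 2 with quantile normalization. In the tethering list 1 passed as lower with quantile normalization and 1 as higher without control arrays 1 and 2 together. The autophagy genes had a median of -0.02, the cholesterol export partners of -0.09 and the cystatins of 0.11. Of 14 autophagy genes Atg5 passed as higher (0.18, adjusted p = 0.0427), a call that ended in 12 of 23 alternatives, among them leaving out low P/S array 1, 2, 4 or 5 or control array 3, 4, 5 or 6 (adjusted p between 0.0606 and 0.0984). Among 10 partners of cholesterol export, Tmem97, a membrane protein that binds NPC1, rose 1.57-fold (0.65 ± 0.12, adjusted p = 0.000998), with 701 at the lowest, 758 at the median and 877 at the highest in low P/S arrays, against 390.5 at the lowest, 502 at the median and 615 at the highest in control arrays. Osbpl1a, an oxysterol-binding protein of late endosomes, fell (-0.27, adjusted p = 0.0254) but not with low P/S array 4 or control array 1 or 6 left out (adjusted p between 0.0509 and 0.0614). Quantile normalization gave 1 higher and 5 lower genes among these partners. The cathepsin inhibitor gene Cstb rose 1.14-fold (adjusted p = 0.0153), and Cst3 and Cst6 did not pass. In a list of endocytosis genes 5 had a probe set, of which 2 were too dim to test, 2 fell and 1 did not pass. Cubn and Amn, which form a receptor for protein uptake, fell 4.56-fold and 1.22-fold (adjusted p = 3.3e-06 and 0.00825). Dab2, their endocytic adaptor, averaged 119.0 ± 12.2 on the low P/S and 104.6 ± 9.1 on the control diet (SD, n = 6 each), a difference of 0.18 (adjusted p = 0.0724) that passed as higher with quantile normalization or with low P/S array 6 left out.

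**Figure D4:**
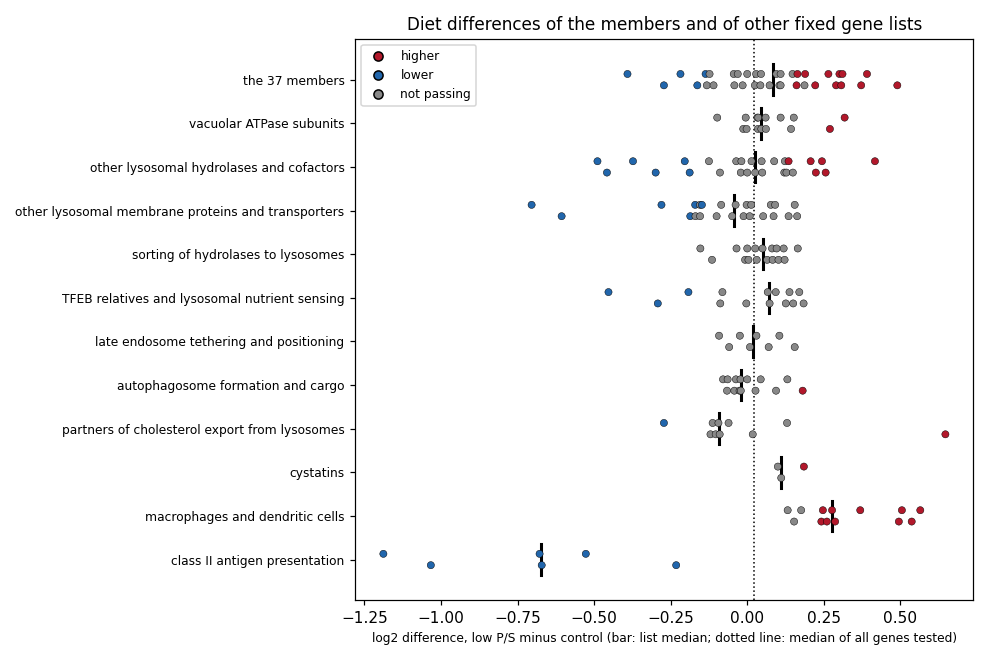
Log2 difference, low P/S minus control, of every tested gene (points) in the 37 genes, in the 9 other lysosome lists and in 2 marker lists, with the median of each list (black bar) and of all genes tested (dotted line). Red points passed as higher, blue points as lower and grey points did not pass; the transporter list has blue points alone among its passing genes, and the macrophage list has red points alone.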

How the data were processed

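Total RNA (500 ng, labelled with a whole-transcript kit and without ribosomal RNA reduction, per the labels' protocols) from 12 small intestines was hybridized to 1 array each. The authors deposited 1 linear intensity per probe set and array; their summarization and normalization steps are not given in the sources used here. Of 34760 probe sets 21640 named 1 gene, and 21553 of these matched RefSeq by Entrez ID, with 0 symbols changed. The brightest probe set of each of 19937 genes was used on the log2 scale, and 7975 genes dimmer on average than the 40th percentile were left out. The diets were compared with limma 3.58.1 (moderated two-sided test, no covariates) in R 4.3.3, with Benjamini-Hochberg adjustment over 11962 genes. Medians per array lay between 91.9 and 99.5, no arrays were identical, and precision is limited by the array number (median SE 0.061).

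The 37 genes and all lists were chosen with earlier results of these data known. Genes set aside for naming were all 37, up to 4 genes of smallest p in each other list, Dbp and Tef, and the brightest and dimmest marker of a list. The text names all 37 but only some of the others. Adgre1, Fcgr1, Aif1, Siglec1, Cd68, Fcer1g, Fabp1, H2-Aa, Ciita, Arntl, Per1, Tfe3, Mitf and Tfec were named after their values were seen. So were Arsg, Dpp7, Acp2, Gm2a, Plbd1, Prcp and Man2b2. On simulated data with 11962 genes, 28 of 50 planted differences of 0.25 and 47 of 50 of 0.5 were recovered, with 11 false calls among 186. The simulation planted 50 genes at each of 0.25, 0.5, 1 and 2 with independent noise, whereas 3074 genes passed in the data. Its recovery rates therefore do not give the power of the diet comparison. The 23 alternatives covered scaling, filters, probe sets, array weights, the variance prior, a pseudocount of 16, the replicate number as a block and arrays left out.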

Additional observations from a re-analysis of the deposited data

Results flagged for a closer look

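An array was singled out where its gap to the nearest array of its diet, divided by the range of the diet, exceeded Dixon's critical value for 6 samples. Chance does this in about 1 of 20 groups, and it happened in 22 of 296 groups (7.43%) of 148 genes, among them 5 of 74 groups of the lysosomal genes. Low P/S array 2 was the highest of its diet for Npc2 (535.7, against 463.5 to 484.1 in the others) and Ctsz (3040.8, against 2488.0 to 2673.9), and low P/S array 4 for Gla (252.9, against 191.2 to 211.2). Control array 5 was the lowest of its diet for Gaa (130.5, against 141.9 to 147.2) and control array 6 for Ppt1 (388.0, against 430.5 to 447.1). Among the other lysosome genes, low P/S array 2 was highest for Sqstm1 (1648.6) and control array 2 lowest for Siae (629.6).

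Low P/S array 3 was the highest of its diet for 8 marker genes, the B cell genes Ms4a1 (168.0), Cd79b (181.9) and Mzb1 (152.5), the class II genes Cd74 (1270.3), H2-Ab1 (639.1) and H2-DMa (159.5), the Paneth cell gene Lyz1 (12631.6) and the pancreatic gene Ctrb1 (115.4). Control array 5 was the highest of its diet for Cd74 (2629.8) and H2-Ab1 (1290.3), and control array 3 for Ms4a1 (50.9). The remaining cases were Cd8a in low P/S array 5 (146.2, the lowest), Acta2 and Per3 in low P/S array 6 (2067.4, the lowest, and 133.9, the highest) and Myh11 in control array 4 (2516.0, the highest).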

How the results depend on the processing

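Of the 17 lysosomal genes that passed, 11 passed under all 23 alternatives in which they were tested and none turned sign; Npc2, Lipa, Asah1, Man2b1, Fuca1 and Ppt1 did not pass under some. Quantile normalization gave 1596 lower genes in all, 8 lower members with a median member difference of 0.028 and 29 lower genes in the other lysosome lists, and median centring gave 3 lower members. Without control arrays 1 and 2 the other lists had 20 higher genes. Leaving out 1 array at a time gave 8 to 14 higher and 3 to 6 lower members, a median of 0.055 to 0.099, 1612 to 2355 higher and 788 to 1049 lower genes in all, and 8 to 14 higher and 12 to 17 lower genes in the other lists; the low of 3 lower members came without low P/S array 4 or control array 4. Among members that did not pass, signs turned for Mcoln1 with array weights (0.02), for Neu1 with median centring (0.007), array weights (0.005) and the pseudocount (0.00), for Ctsb (-0.051), Ctsl (-0.026) and Manba (-0.012) with quantile normalization, for Ctsl without control arrays 1 and 2 (-0.016), and for Arsb with the mean of probe sets (0.006). With 1 array left out the differences ran from -0.051 to 0.022 for Mcoln1, -0.045 to 0.024 for Neu1, -0.004 to 0.048 for Ctsb, -0.024 to 0.11 for Ctsl and -0.004 to 0.047 for Sgsh. Arrays of the same number did not all deviate together (correlations of -0.11 to 0.42), and with the number as a replicate block 13 members were higher and 4 lower, 2454 and 1076 genes in all were higher and lower, and the median stayed at 0.08; Npc2 (adjusted p = 0.052) and Fuca1 (adjusted p = 0.0567) did not pass and Ctsz and Lamp2 did. The causes of these changes were not tested.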
